A study of Homo sapiens with 48 samples.

Results

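AO168_O and DTBP are 2 of the 9 antioxidants that were added to differentiating human embryonic stem cells, and their 4 libraries were set against the 14 libraries of the other 7 (AO_2246, BHA, BHT, BHT_CHO, BHT_COOH, DG and TBHQ). The series holds 48 RNA sequencing libraries in 24 groups of 2. Every antioxidant culture was of the H9 line, an established human embryonic stem cell line, grown as a monolayer in 24-well plates in E6 medium and exposed for 8 days, and all of the groups compared here share that medium and that time. The AO168_O group received AO168_O for 8 days, the DTBP group received DTBP for 8 days, and each of the other groups received its own compound for the same time. The 2 DMSO libraries, of the same day, are shown as levels only and are not what the members were tested against. The labels state no dose, so exposures are compared as they were used, and nothing can be said per unit of compound. AO168_O is a code and DTBP an abbreviation. The labels expand neither, so no structure was assigned and no difference was tied to one.

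Antioxidants stop chains of lipid oxidation, either by giving up a hydrogen atom to a radical or by removing hydroperoxides. In cells, compounds of this kind are commonly read out through NRF2, which switches on glutathione and thioredoxin genes, and through AHR, which switches on the CYP1 enzymes. H9 cells left in E6 medium lose the signals that keep them pluripotent and take on ectodermal fates, neural ectoderm with SOX2 and PAX6 and surface ectoderm with the keratins KRT8 and KRT18.

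The 4 libraries of AO168_O and DTBP held 19149595 to 20096084 read counts over 17191 to 17298 detected genes. Levels are given as normalised CPM (counts scaled to library size with TMM factors), and they compare 1 gene between libraries, not genes with each other. Early ectoderm markers were present beside remaining pluripotency transcripts. SOX2 had 541 and 493 CPM in DTBP and 598 and 506 CPM in AO168_O, against 507 to 706 CPM in the other antioxidants. POU5F1, the core pluripotency factor, had 763 and 497 CPM in DTBP and 1113 and 518 CPM in AO168_O, against 423 to 1074 CPM in the other antioxidants. The 16 mesendoderm markers together reached 70.6 and 77.8 CPM in DTBP and 94.6 and 90.05 CPM in AO168_O, against 69.9 to 121 CPM in the others, and 3 of them had no count in the 4 libraries. The replicate number went with large differences. In 8 of the 9 compounds, all except DG, libraries numbered 2 differed from those numbered 1 in the same direction for many genes, and POU5F1 was lower in replicate 2 of both AO168_O and DTBP. What the number stands for (a plate, a day or a run) is not given in the labels. For that reason values below are also set side by side within each number.

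Taken as a pair, the 4 libraries of AO168_O and DTBP were not separated from the other 14 by any gene. Of 16113 genes tested with edgeR's quasi-likelihood test, 0 (0%) had a Benjamini-Hochberg adjusted p under 0.05, and DESeq2 called 0 as well. At an unadjusted p under 0.05 there were 203 higher genes (1.26% of those tested) and 261 lower genes (1.62%). On the log2 scale, 92.8% of genes had a 95% interval inside 1 either way and 75.5% inside 0.5 either way. By rank, INTS10, a subunit of the Integrator complex, came first on the higher side, with 38.8 and 39.9 CPM in DTBP and 38.5 and 38.2 CPM in AO168_O, against 29.5 to 37.9 CPM in the others (log2 fold change 0.16, SE 0.046, unadjusted p 0.00138). All 4 libraries lay above the 14 others. PDGFC, a growth factor for mesenchymal cells, followed at a log2 fold change of 0.44 (SE 0.13), then HSDL2 at 0.19, BLOC1S5 at 0.21 and UPK2 at 0.78. On the lower side CEBPD, a transcription factor of the C/EBP family, had 2.18 and 2.87 CPM in DTBP and 3.58 and 2.43 CPM in AO168_O, against 2.73 to 4.92 CPM in the others (log2 fold change -0.55, SE 0.15, unadjusted p 0.000823). The ranges overlapped. FGF5, a growth factor of the primed pluripotent state, had a log2 fold change of -0.64 (SE 0.20), with 1.72 and 2.002 CPM in DTBP and 1.60 and 1.86 CPM in AO168_O, against a median of 2.69 CPM in the others. LRRC24 (-1.84), LOC105376526 (-0.39) and KCNJ6 (-0.58), a potassium channel subunit, filled the remaining ranks, and none of these 10 genes passed the adjusted threshold (adjusted p 1.00 for each).

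AO168_O stood apart from the other antioxidants in 1 gene, PRRG3, which encodes a single-pass membrane protein with a vitamin K-dependent Gla domain. PRRG3 (gene identifier 79057 in the files) lies on chromosome X at 151695124 to 151705924 on the plus strand of GRCh38, as annotated in GENCODE release 29, where it is a protein-coding gene. It had 18.3 and 21.6 CPM in the AO168_O libraries, against 27.7 to 37.7 CPM (median 32.7) in the 14 libraries of the other 7 antioxidants. Both AO168_O libraries lay below all 14. The log2 fold change was -0.74 (SE 0.11, 95% interval -0.97 to -0.51, edgeR adjusted p 0.00794), and it was 1 call of 16113 genes (0.00621%). DTBP did not share the low level, at 34.1 and 35.98 CPM, inside the range of the other 14 (log2 fold change 0.073, 95% interval -0.14 to 0.29). The DMSO libraries had 13.9 and 19.4 CPM, so the AO168_O level lay nearer to DMSO than to any other antioxidant. The mean was 19.95 ± 2.31 CPM in AO168_O and 16.7 ± 3.89 CPM in DMSO (SD, n = 2 each). Against single compounds the AO168_O difference ran between -0.67 (BHA) and -0.85 (DG) on the log2 scale. Without AO168_O replicate 1 the log2 fold change was -0.62 and edgeR's adjusted p 0.844, and without AO168_O replicate 2 they were -0.86 and 0.148. Each of these fits has a lone AO168_O library, which is assumed to vary like the libraries of the other groups. With the spread estimated from the 18 antioxidant libraries alone, the log2 fold change was again -0.74 (SE 0.12) and edgeR's adjusted p 0.367, where alternatives ranged between 4.69e-06 and 1.00.

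**Figure D1:**
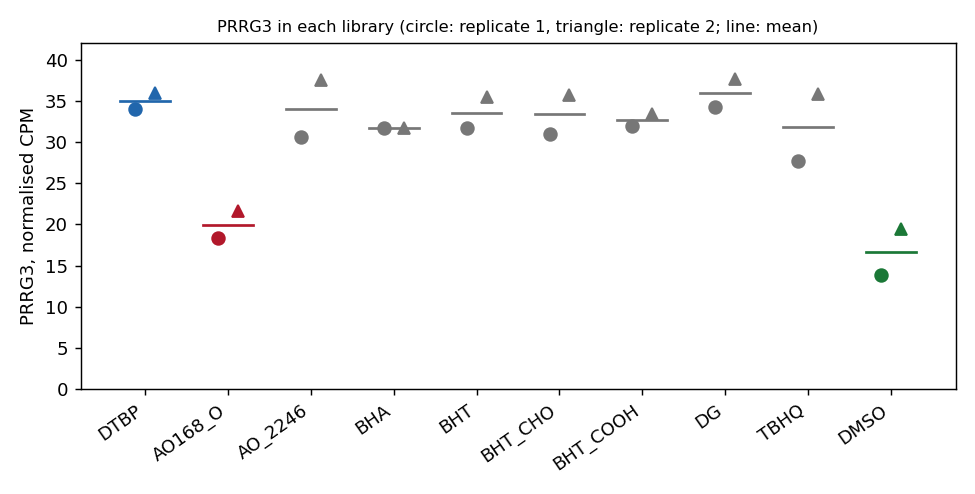
PRRG3 in normalised CPM (vertical axis, starting at 0) in each library of DTBP, AO168_O, the other 7 antioxidants and DMSO (horizontal axis). Circles are replicate 1, triangles replicate 2 and lines group means; AO168_O sits at 18.3 and 21.6 CPM, below every other antioxidant library.

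No other gene passed in AO168_O, and DESeq2 called 3, all lower, which were PRRG3, C4orf48 and MEX3D. The next ranks are given as values only. C4orf48, a small secreted neuropeptide-like protein, had 10.6 and 10.2 CPM in AO168_O, against 11.3 to 31.95 CPM in the others (log2 fold change -1.21, SE 0.26, edgeR adjusted p 0.357). Both AO168_O libraries lay below the other 14. MEX3D, an RNA-binding protein, had 52.5 and 55.1 CPM in AO168_O, against 56.5 to 91.3 CPM in the others (log2 fold change -0.50, SE 0.11, edgeR adjusted p 0.357). TLNRD1, which bundles actin, had 32.1 and 35.1 CPM in AO168_O, against 38.9 to 47.2 CPM in the others (log2 fold change -0.36). CSK, the kinase that holds SRC inactive, had 43.5 and 47.6 CPM in AO168_O, against 47.8 to 62.1 CPM in the others (log2 fold change -0.29). For all 4 the AO168_O libraries lay below every other antioxidant library, though none but C4orf48 differed by more than 1 on the log2 scale.

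Of the 33 gene lists, that of G2/M, the phase of chromosome segregation and division, held the most genes at an unadjusted p under 0.05 in AO168_O. Of 27 tested genes of the G2/M list, 8 were higher at an unadjusted p under 0.05 and 0 were lower, where 3.39% of all genes tested were higher at that threshold and 2.17% lower. The list median was 0.15 on the log2 scale, against -0.0044 for all genes, and none of the 8 passed the adjusted threshold. ECT2, the exchange factor that sets the cleavage furrow, had 112 and 103 CPM in AO168_O, against 66.6 to 117 CPM (median 83.8) in the others (log2 fold change 0.31, SE 0.075, edgeR adjusted p 0.494). TOP2A, the topoisomerase that untangles sister chromatids, had 531 and 451 CPM in AO168_O, against 332 to 523 CPM (median 388) in the others (log2 fold change 0.33, SE 0.087, edgeR adjusted p 0.621). For both genes the AO168_O libraries lay at the high end of the range of the others and overlapped it. ANLN, the actin scaffold of the cleavage furrow, had a log2 fold change of 0.35 (SE 0.091). CENPF, KIF11, KIF23, TTK and HMMR, which act on kinetochores and the spindle, had log2 fold changes of 0.29, 0.26, 0.20, 0.21 and 0.18. The list sum was 5437 and 4584 CPM in AO168_O, against 4195 to 5134 CPM (median 4527) in the others and 5486 and 4645 CPM in DMSO. AO168_O replicate 1 lay above that range and replicate 2 near its median. Beside libraries of the same replicate number, 5 of the 27 lay above all 7 others in both numbers and 0 below. Over all genes tested 1.94% lay above and 2.42% below. In a fit of the 8 antioxidants without DG, 12 of the 27 were lower in replicate 2 than in replicate 1 and 0 higher. There, 35.3% of all genes differed either way. In AO168_O against the other antioxidants, the S-phase list did not move as the G2/M list did. It had 1 gene higher (RRM1) and 1 lower (E2F1, log2 fold change -0.22) of 24 and a median of -0.0069. Beside them stood SRBD1 (0.35, SE 0.078), a protein with an S1-type RNA-binding domain, STAG2 (0.35, SE 0.087), a cohesin subunit, TTC37 (0.32, SE 0.079), a cofactor of the RNA exosome, and IPO7 (0.27, SE 0.069), a nuclear import receptor. SRBD1 had 26.7 and 25.2 CPM in AO168_O, against 16.5 to 24.98 CPM in the others, with both AO168_O libraries above all 14. STAG2 had 158 and 144 CPM in AO168_O, against 93.7 to 153 CPM in the others.

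**Figure D2:**
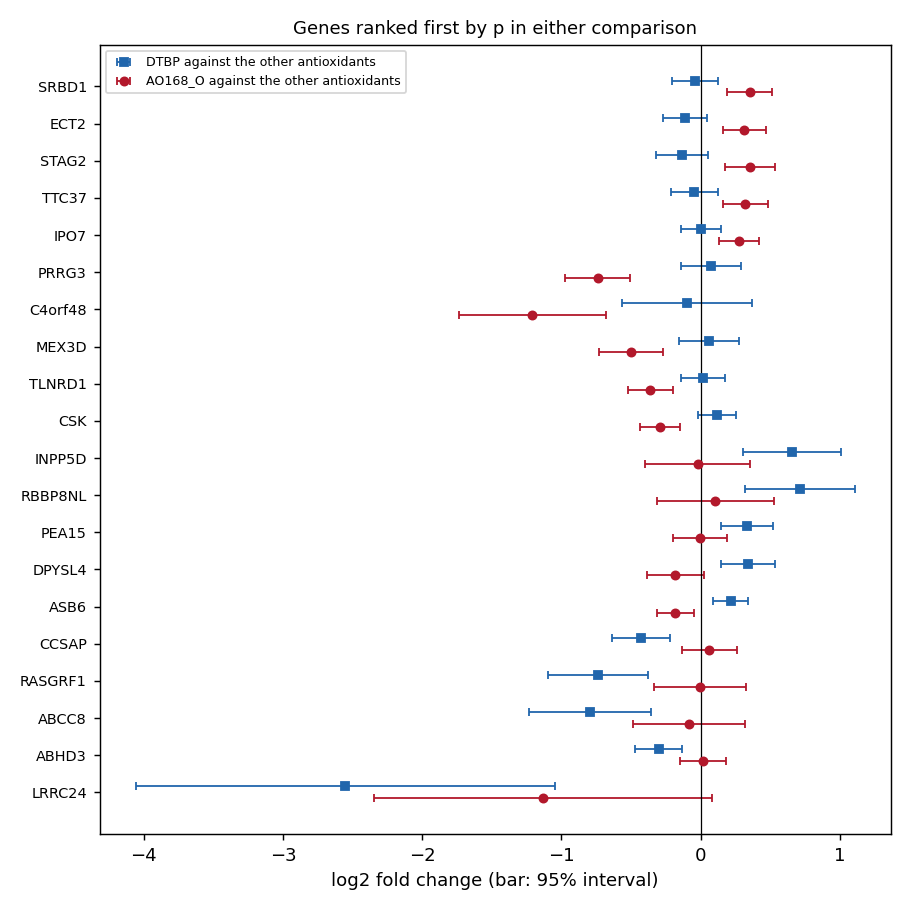
Log2 fold change (horizontal axis) with its 95% interval (bar) of the genes ranked first by p in either comparison (vertical axis), for DTBP (squares) and AO168_O (circles), each against the mean of the other 7 antioxidants. PRRG3 in AO168_O, at -0.74, was the 1 call.

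DTBP had no call against the other antioxidants in the fit used here, which has no term for the replicate number, and its surface ectoderm genes lay high. By edgeR 0 of 16113 genes (0%) had an adjusted p under 0.05, and by DESeq2 0. At an unadjusted p under 0.05 there were 375 higher genes (2.33%) and 370 lower genes (2.3%). Of 22 tested genes of the surface ectoderm and placode list 6 were higher at that threshold and 0 were lower, and 17 of 22 had a positive log2 fold change, where 50.02% of all genes had one. The list median was 0.54 on the log2 scale, against 6.7e-05 for all genes tested. KRT8, a keratin of simple epithelia, had 1202 and 1367 CPM in DTBP, against 582 to 1169 CPM (median 811) in the others (log2 fold change 0.62, SE 0.20, unadjusted p 0.00473). Its partner keratin KRT18, named after its values were seen, had 657 and 777 CPM in DTBP, against 316 to 667 CPM (median 432) in the others (log2 fold change 0.66, SE 0.22, unadjusted p 0.00612). GRHL3, a transcription factor of the early epidermis, had 57.7 and 57.6 CPM in DTBP, against 19.4 to 55.2 CPM (median 31.4) in the others (log2 fold change 0.76, SE 0.25). Both DTBP libraries lay above all 14 others for KRT8 and GRHL3, and for KRT18 replicate 2 lay above all 14 and replicate 1 just below the highest of them. DLX3, a homeobox gene of epidermis and placodes, had 32.6 and 22.6 CPM in DTBP, against 7.62 to 24.1 CPM in the others (log2 fold change 0.76, SE 0.28). GATA3, a transcription factor of surface ectoderm also named after its values were seen, had a log2 fold change of 0.83. None of the 6 passed the adjusted threshold (adjusted p 0.982 for each).

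Set beside libraries of the same replicate number, the DTBP keratins lay above all of the others in both numbers. For KRT18, DTBP replicate 1 had 657 CPM, against 316 to 387 CPM in the 7 other replicate 1 libraries, and DTBP replicate 2 had 777 CPM, against 478 to 667 CPM in the 7 other replicate 2 libraries. For KRT8 the values were 1202 CPM in DTBP replicate 1, against 582 to 845 CPM, and 1367 CPM in DTBP replicate 2, against 806 to 1169 CPM. In all, 9 of 22 surface ectoderm genes lay above every other antioxidant of the same number in both numbers, among them TFAP2A, GATA3, KRT8, GRHL3, MSX2, KRT18, DLX5 and GRHL2, where 434 of all genes tested (2.69%) did, and 0 lay below, where 304 (1.89%) did. AO168_O had 0 of 22 above and 0 below, where it lay above all of the others for 313 genes (1.94%) and below for 390 (2.42%). The list sum was 3090 and 3405 CPM in DTBP, most of it from KRT8 and KRT18, against 1948 to 2972 CPM in the others. In AO168_O it was 2568 and 2476 CPM, and in DMSO 2411 and 2510 CPM. Markers of amnion and trophoblast, which also carry these keratins, summed to 85.7 and 81.2 CPM in DTBP, against 67.9 to 86.8 CPM in the others, with 0 of 14 tested genes at an unadjusted p under 0.05 in either direction. Within the numbers, 1 of the 14 (WNT6, a WNT ligand) lay above every other antioxidant in both and 0 lay below. In these bulk libraries more cells of a type and more RNA per cell cannot be told apart.

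Targets of p53 were mostly positive in DTBP, without a call. Of 24 tested p53 targets 22 had a positive log2 fold change, 3 were higher at an unadjusted p under 0.05 and 0 were lower, and the median was 0.18 on the log2 scale. Over all genes tested 50.02% were positive, 2.33% were higher at that threshold and 2.3% lower. CDKN1A, the cyclin-dependent kinase inhibitor p21, had 159.8 and 195 CPM in DTBP, against 69.4 to 179 CPM (median 114) in the others (log2 fold change 0.61, SE 0.22, edgeR adjusted p 0.982). DTBP replicate 1 had 159.8 CPM, against 69.4 to 108 CPM in the other replicate 1 libraries, and DTBP replicate 2 had 195 CPM, against 119 to 179 CPM in the other replicate 2 libraries. PHLDA3, a repressor of AKT, had 84.00 and 74.9 CPM in DTBP, against 51.99 to 75.7 CPM in the others (log2 fold change 0.29, SE 0.10), and ZMAT3 had a log2 fold change of 0.36. Within the numbers 7 of the 24 lay above every other antioxidant in both (CDKN1A, TNFRSF10B, SPATA18, GADD45A, PLK3, ZMAT3 and BTG2) and 0 below, where 2.69% of all genes lay above and 1.89% below. GADD45A, a growth arrest gene named after its values were seen, had 51.3 and 69.7 CPM in DTBP, against 24.2 to 65.6 CPM in the others (log2 fold change 0.54, SE 0.28, unadjusted p 0.0693). CDKN1A, GADD45A and KRT18 were also higher in replicate 2 than in replicate 1 in both AO168_O and DTBP, so the replicate spread in these genes was wide. In a fit of the 8 antioxidants without DG, 12 of 24 p53 targets were higher in replicate 2 than in replicate 1 and 2 lower. Their median was 0.16, with the same sign as in DTBP. Of 22 surface ectoderm genes 8 were higher and 5 lower (median 0.064). Over all 15653 genes of that fit, 2851 were higher and 2679 lower. Why the signs match was not tested. NGFR, the p75 neurotrophin receptor and a marker of neural crest, had 99.1 and 125 CPM in DTBP, against 48.2 to 103 CPM in the others (log2 fold change 0.55, SE 0.18), and was the 1 of 14 neural crest genes higher at an unadjusted p under 0.05.

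**Figure D3:**
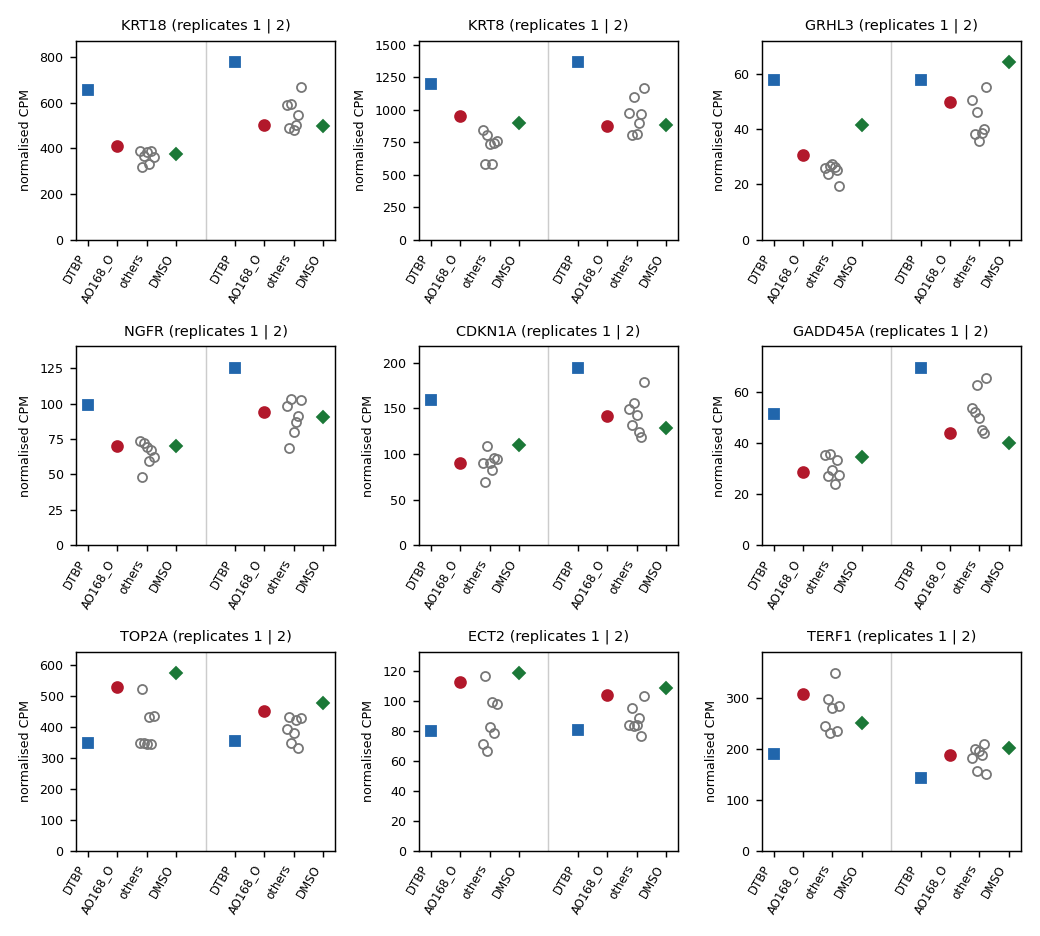
Normalised CPM (vertical axis, starting at 0) of 9 genes in DTBP (squares), AO168_O (filled circles), the other 7 antioxidants (open circles) and DMSO (diamonds), with replicate 1 libraries left of the line and replicate 2 libraries right of it. KRT18, KRT8, GRHL3, NGFR, CDKN1A and GADD45A in DTBP sit above all open circles of the same number, TOP2A does so in AO168_O, and TERF1 in DTBP sits below them.

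Pluripotency genes lay slightly low in DTBP. All 17 tested pluripotency genes had a negative log2 fold change in DTBP, with a median of -0.26, but 1 was lower at an unadjusted p under 0.05. That gene was TERF1, a telomere-binding protein abundant in stem cells, with 190.4 and 142 CPM in DTBP, against 149.8 to 349 CPM in the others (log2 fold change -0.45, SE 0.21, edgeR adjusted p 0.982). DPPA2, another stem cell gene, had a log2 fold change of -0.36 (SE 0.19). The list sum was 5748 and 4511 CPM in DTBP, inside the range of the others (4231 to 7603 CPM). Over all genes tested, 50.02% were positive in DTBP and 48.7% in AO168_O. At an unadjusted p under 0.05, 2.33% of all genes were higher and 2.3% lower in DTBP, and 3.39% higher and 2.17% lower in AO168_O. In AO168_O 14 of the 17 were positive and the median was 0.073, with UTF1 at -0.69 (SE 0.35) and L1TD1 at 0.25 (SE 0.15). For neural ectoderm the median was 0.22 in DTBP and -0.083 in AO168_O, with 0 of 22 genes at an unadjusted p under 0.05 in either. SIX6, an eye-field gene, had 11.96 and 15.4 CPM in DTBP, against 1.53 to 17.03 CPM in the others (log2 fold change 1.06, 95% interval -0.13 to 2.25). Metallothioneins, which bind zinc and copper, were all 7 negative in DTBP with a median of -0.41, and 0 passed an unadjusted p of 0.05. MT1E had 7.28 and 5.29 CPM in DTBP, against 5.05 to 12.9 CPM in the others. These lists also differed between the replicate numbers, in a fit of the 8 antioxidants without DG. Their medians for replicate 2 minus replicate 1 were -0.41 (pluripotency), 0.57 (neural ectoderm) and -0.71 (metallothioneins), with the same signs as in DTBP. Why the signs match was not tested.

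Over all genes, the first ranks in DTBP are given as values only (edgeR adjusted p 0.982 for each). INPP5D, an inositol phosphatase that limits PI3K signalling, had 49.05 and 60.1 CPM in DTBP, against 21.7 to 49.98 CPM in the others (log2 fold change 0.66, SE 0.17). RBBP8NL had 15.1 and 14.9 CPM in DTBP, against 5.34 to 11.7 CPM in the others (log2 fold change 0.71), and both DTBP libraries lay above all 14. PEA15, which holds ERK in the cytoplasm, DPYSL4, a collapsin response protein, and ASB6, a substrate receptor of a ubiquitin ligase, had log2 fold changes of 0.33, 0.34 and 0.21. On the lower side CCSAP, a microtubule-binding protein of centrioles and spindles, had 25.8 and 25.05 CPM in DTBP, against 27.2 to 42.7 CPM in the others (log2 fold change -0.43, SE 0.10). RASGRF1, an exchange factor for RAS, had 2.60 and 2.62 CPM in DTBP, against 3.09 to 5.89 CPM in the others (log2 fold change -0.74, SE 0.17). ABCC8, the sulfonylurea receptor, had 1.77 and 1.49 CPM in DTBP, against 2.20 to 4.29 CPM in the others (log2 fold change -0.79, SE 0.21). For CCSAP, RASGRF1 and ABCC8 both DTBP libraries lay below all 14 others. ABHD3, a phospholipase, had a log2 fold change of -0.30, and LRRC24, at under 1 CPM in DTBP, had -2.55 (SE 0.73).

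Genes of the response to electrophiles and to aryl hydrocarbon ligands gave no call in either compound. NQO1, a quinone reductase under NRF2 and AHR, had 30.3 and 35.9 CPM in DTBP and 22.3 and 26.1 CPM in AO168_O, against 18.7 to 35.2 CPM in the others. Its log2 fold change was 0.33 in DTBP (95% interval 0.058 to 0.61, unadjusted p 0.0195) and -0.12 in AO168_O (95% interval -0.41 to 0.17). Of 28 tested NRF2 targets, 3 were higher in DTBP at an unadjusted p under 0.05 (among them NQO1 and the ferritin light chain FTL at 0.22), and in AO168_O 0 were. Over all genes tested, 2.33% were higher in DTBP and 3.39% in AO168_O at that threshold. The list median was 0.04 in DTBP and -0.057 in AO168_O. HMOX1, heme oxygenase, had 13.9 and 13.4 CPM in DTBP and 14.8 and 15.3 CPM in AO168_O, against 9.60 to 17.9 CPM in the others, with 95% intervals of -0.44 to 0.37 in DTBP and -0.30 to 0.50 in AO168_O on the log2 scale. For TXNRD1, thioredoxin reductase, the intervals were -0.16 to 0.23 in DTBP and -0.18 to 0.21 in AO168_O. For GCLM, of glutathione synthesis, they were -0.28 to 0.23 in DTBP and -0.45 to 0.07 in AO168_O, and for SRXN1, sulfiredoxin, -0.082 to 0.41 in DTBP and -0.32 to 0.19 in AO168_O. CYP1B1, an AHR target, had 4.005 and 7.24 CPM in DTBP and 2.92 and 3.41 CPM in AO168_O, against 1.88 to 5.08 CPM in the others (log2 fold change in DTBP 0.92, SE 0.31, unadjusted p 0.00675). DTBP replicate 2 was the highest of the 18 libraries and replicate 1 lay inside the range of the others. CYP1A1, the classical AHR target, stayed under 1 CPM in all 18 libraries. Of the 25 antioxidant enzymes, SELENOP, a selenium carrier, came first in AO168_O with 62.6 and 59.9 CPM in AO168_O, against 36.7 to 55.9 CPM in the others (log2 fold change 0.42, SE 0.11, edgeR adjusted p 0.666), both AO168_O libraries above all 14.

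The remaining lists had few members at the unadjusted threshold, which over all genes 3.39% passed as higher and 2.17% as lower in AO168_O, and 2.33% as higher and 2.3% as lower in DTBP. In AO168_O, 3 of 14 heat shock genes were higher (HSPD1 at 0.24, DNAJA1 at 0.23 and HSP90AA1 at 0.29) and 0 lower, and 21 of 24 genes of the ATF4 and unfolded protein response were negative with a median of -0.15 but 0 at the threshold. Of 24 hypoxia and glycolysis genes, 3 were higher in AO168_O at the threshold (KDM3A at 0.25, and the mitophagy genes BNIP3L at 0.18 and BNIP3 at 0.31) and 1 lower (PFKFB4 at -0.28). HES4, a Notch target, had 43.4 and 46.5 CPM in AO168_O, against 42.2 to 86.7 CPM in the others (log2 fold change -0.52, SE 0.18). In DTBP the AHR list had a median of 0.20 with 2 of 10 genes higher at the threshold (CYP1B1 and NQO1), and the FGF and ERK feedback list 0.21, with SPRED2 at 0.30 the 1 of 23 at the threshold. HAS2, a hyaluronan synthase, was positive in both compounds, at 0.51 in DTBP and 0.55 in AO168_O, with 11.2 and 7.24 CPM in DTBP and 10.8 and 8.11 CPM in AO168_O, against 4.28 to 8.60 CPM in the others. RARB, a retinoic acid receptor and target, had 7.54 and 5.75 CPM in DTBP and 7.21 and 4.49 CPM in AO168_O, against 1.92 to 5.18 CPM in the others. For cholesterol synthesis, the medians were 0.043 in DTBP and -0.025 in AO168_O, for respiratory chain subunits -0.016 in DTBP and 0.059 in AO168_O, and for cytosolic ribosomal proteins 0.027 in DTBP and 0.029 in AO168_O. Of the genes added to the naming rule whatever their values, IRX1, a homeobox gene, had 62.05 and 94.3 CPM in DTBP and 67.1 and 42.1 CPM in AO168_O, against 49.4 to 96.5 CPM in the others, NINJ1, an adhesion protein, had log2 fold changes of 0.15 in DTBP and -0.12 in AO168_O, and PHF6, a chromatin protein, had 0.049 in DTBP and 0.19 in AO168_O.

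**Figure D4:**
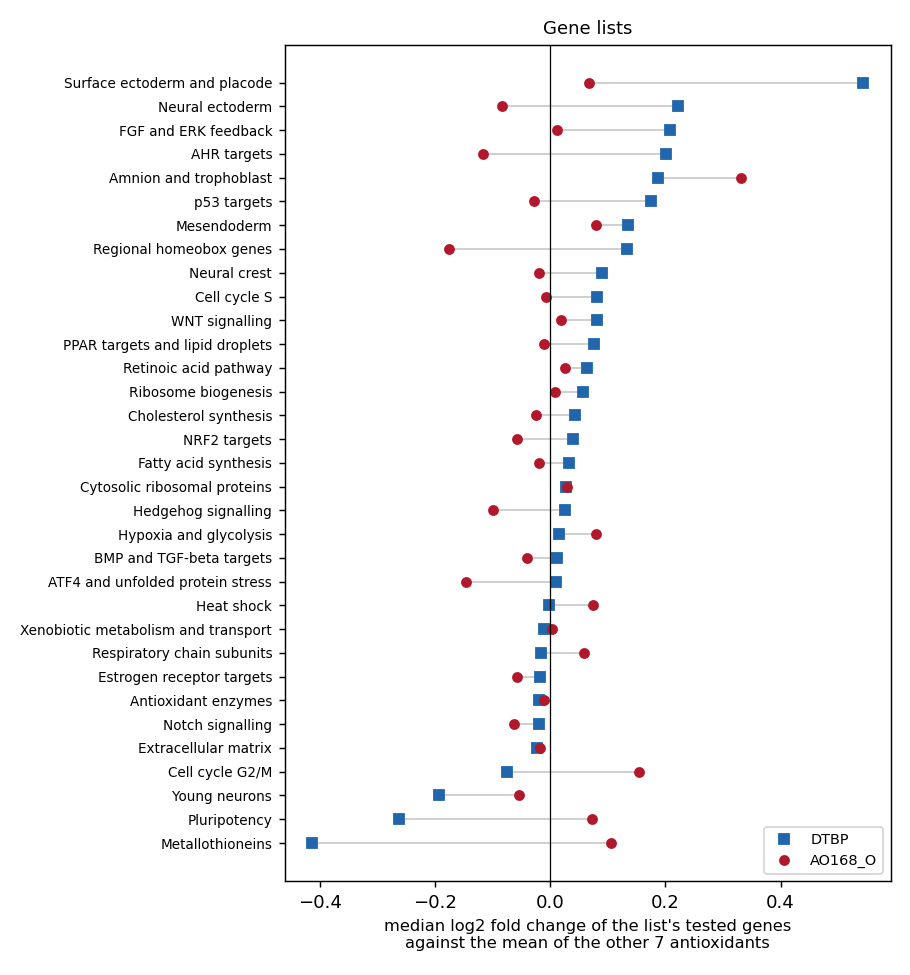
Median log2 fold change (horizontal axis) of the tested genes of each of 33 lists (vertical axis) in DTBP (squares) and AO168_O (circles), each against the mean of the other 7 antioxidants; grey lines join the 2 values of a list. The surface ectoderm list lies highest in DTBP, at 0.54, and the metallothionein list lowest, at -0.41.

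Set directly against AO168_O, DTBP differed in no gene at the adjusted threshold, and PRRG3 came nearest. This fit has no term for the replicate number, and fits with such a term, in which PRRG3 passed, are given below. By edgeR 0 of 16113 genes (0%) passed, with 622 higher (3.86%) and 586 lower (3.64%) at an unadjusted p under 0.05, and DESeq2 called 2, both higher in DTBP, PRRG3 and HNRNPAB, the second named after its values were seen. PRRG3 had 34.1 and 35.98 CPM in DTBP, against 18.3 and 21.6 CPM in AO168_O (log2 fold change 0.81, SE 0.14, 95% interval 0.52 to 1.10, edgeR adjusted p 0.0662). ASB6 had 36.1 and 38.2 CPM in DTBP, against 27.1 and 29.4 CPM in AO168_O (log2 fold change 0.40, SE 0.084). CTXN1, a small membrane protein of the brain, had 70.3 and 62.3 CPM in DTBP, against 38.4 and 41.4 CPM in AO168_O (log2 fold change 0.73, SE 0.16). CSK and MAPKAPK2, a kinase downstream of p38, had log2 fold changes of 0.41 and 0.41. DDX58, the RNA sensor RIG-I, had 9.83 and 10.01 CPM in DTBP, against 16.6 and 14.4 CPM in AO168_O (log2 fold change -0.64, SE 0.14). KDM3A, a histone demethylase induced in hypoxia, had 34.9 and 38.7 CPM in DTBP, against 52.3 and 47.3 CPM in AO168_O (log2 fold change -0.44). ITGAM, an integrin subunit at about 1 CPM or less, had 0.156 and 0.205 CPM in DTBP, against 0.88 and 1.14 CPM in AO168_O. All of these except PRRG3 had an edgeR adjusted p of 0.249, and for each the libraries of the 2 compounds did not overlap. In the G2/M list 10 of 27 genes were lower in DTBP at an unadjusted p under 0.05 and 0 were higher, with a median of -0.21, led by ECT2 (-0.43) and TOP2A (-0.48), and STAG2 had -0.49. In the surface ectoderm list 18 of 22 were positive with a median of 0.47, and KRT18 (0.65, 95% interval 0.018 to 1.29) was the 1 gene at the unadjusted threshold. On the log2 scale, 79.4% of genes had a 95% interval of DTBP minus AO168_O inside 1 either way and 49.8% inside 0.5, so a miss of the threshold does not show that the 2 exposures act alike.

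Each member was then compared with each single antioxidant, which with DTBP against AO168_O makes 15 pairs. With p-values adjusted over all genes and all 15 pairs together, 0 of 241695 tests (0%) passed by edgeR. Adjusted within a pair, 4 genes passed, all in AO168_O against DG, with IPO7 (log2 fold change 0.54), ABCE1 (0.52, named after its values were seen) and SRBD1 (0.58) higher and PRRG3 (-0.85) lower in AO168_O. The number of genes at an unadjusted p under 0.05 ran between 263 in AO168_O against TBHQ and 2034 in AO168_O against DG. For AO168_O the other low counts were against BHT_COOH (370) and BHA (406), and the other high ones against AO_2246 (1528) and BHT (1105). For DTBP the low counts were against BHT (299), BHT_CHO (345) and AO_2246 (398), and the high ones against BHA (1586), BHT_COOH (1359) and DG (1314). DTBP against AO168_O, with 1208, ranked 12th of the 36 pairs that the 9 compounds allow. These pairs share libraries, so the counts are not independent of each other.

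**Figure D5:**
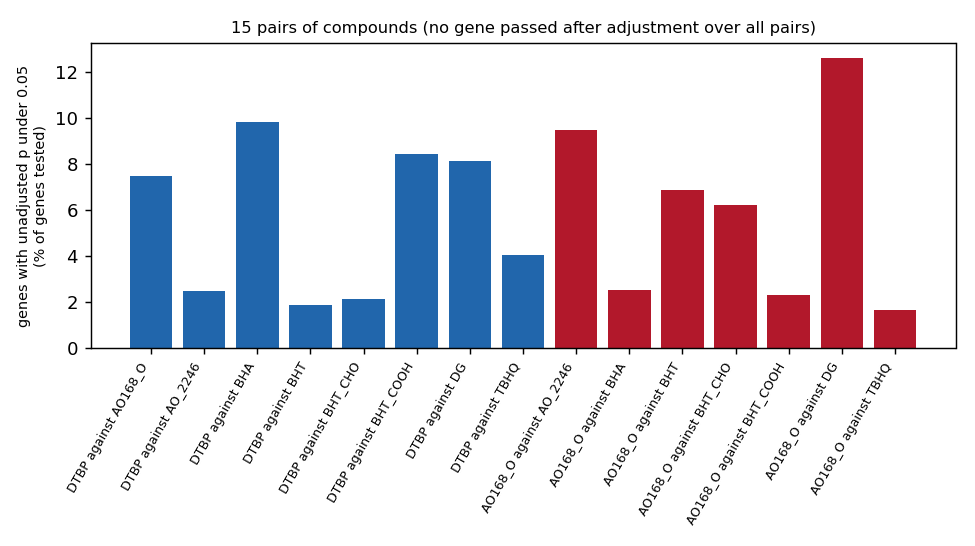
Percentage of genes tested with an unadjusted p under 0.05 (vertical axis) in each of the 15 pairs (horizontal axis), with DTBP pairs in blue and AO168_O pairs in red. The bars run between 1.63% in AO168_O against TBHQ and 12.6% in AO168_O against DG, and no gene passed after adjustment over all pairs.

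The authors' deposited table compares each compound with DMSO and not with the other antioxidants. In the authors' deposited table, 93 of 18078 genes with a q-value had one under 0.05 for DTBP (66 higher and 27 lower). For AO168_O it was 4 of 18076 (2 higher and 2 lower).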

How the data were processed

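The authors deposited 1 table of 19253 genes with estimated counts per library, which need not be whole (43.4% of values changed when rounded here to whole numbers), and their own log2 fold changes and q-values (p-values adjusted for multiple tests) of each compound against DMSO. Per the submitters' processing notes the build is GRCh38.p13, and no aligner or counter is named in the sources used here. Strand is not stated, so antisense and overlapping genes cannot be told apart. CPM were computed here. Tests used edgeR 4.0.16 in R 4.3.3 on the 46 libraries of day 8 (23 groups of 2, 23 residual degrees of freedom, common biological variation 12.5%): filterByExpr by group, TMM factors, glmQLFit and glmQLFTest, with Benjamini-Hochberg adjustment over 16113 genes and a threshold of 0.05. The contrasts were the members' mean, AO168_O or DTBP minus the mean of the other 7 groups, and DTBP minus AO168_O. Intervals are 95% intervals from the same fit. The procedure was tested on simulated counts. For the fit used here these held no difference between replicate numbers, so that test does not cover such a difference. Nothing in the labels says whether the 2 libraries of a group came from separate cultures, so p-values measure the spread between libraries of a group. That spread is pooled over all 23 groups of day 8, which are not equally variable. No pair of libraries of a group agreed within counting noise.

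Genes were named by rule: adjusted p under 0.05, a mean of at least 1 CPM in the higher group, and every library of the member on the same side of the median of the other libraries, up to 12 a direction, filled to 5 by unadjusted p, plus 12 fixed genes and the first 2 genes of each list in each member. A few list members that the counts include are not reported here by name. The members and lists were chosen with earlier results of these data known, PRRG3 among them. Alternatives were DESeq2 1.42.0, RLE factors, no filter, fits of 18 libraries, a replicate block, and leaving out libraries or compounds.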

Additional observations from a re-analysis of the deposited data

How the results depend on the processing

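PRRG3 in AO168_O kept its sign under all alternatives run, with log2 fold changes between -0.86 and -0.62 over the 18 fits that left out 1 library each, but the count of calls for AO168_O fell to 0 with only the 18 antioxidant libraries and to 0 with 16 libraries without DG, and was 3 with DESeq2. Leaving out single libraries gave 0 to 2 calls for AO168_O (0 without either AO168_O library, 2 without AO_2246 replicate 2, where C4orf48 joined PRRG3 with edgeR's adjusted p 0.0393) and 0 to 1 for DTBP against AO168_O (1 without TBHQ replicate 1 or without TBHQ replicate 2, where PRRG3 passed). For DTBP, and for both compounds together, all 18 of these fits gave 0. DESeq2 gave 2 calls for DTBP against AO168_O. RLE factors and no filter changed none of the 4 counts of calls, and neither 1 coefficient for the 14 other libraries nor leaving any 1 of the 7 compounds out of the mean changed the 3 counts against the other antioxidants. Over the fits without 1 library, genes at an unadjusted p under 0.05 numbered 375 to 719 for both compounds, 782 to 1215 for AO168_O, 497 to 1213 for DTBP and 732 to 1509 for DTBP against AO168_O. For the 15 pairs, adjusting each pair on its own gave 4 calls in place of 0. List medians moved by at most 0.0062 with RLE factors and 0.025 with DESeq2. The cause of these changes was not tested.

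Same-numbered libraries deviated together in 28 of 28 pairs of the 8 antioxidants without DG (r 0.22 to 0.77 over 12320 genes, 0.52 between DTBP and AO168_O), and in 2 of 8 pairs with DG (r -0.11 to 0.25), so the number is not shown to pair all 9 compounds and is a hint from the data only. With a replicate block in the 46 libraries the count for AO168_O stayed at 1, DTBP against AO168_O had 1 call (PRRG3, edgeR adjusted p 0.00204), the others stayed at 0, and the 15 pairs adjusted together had 7 calls. A replicate block in the 18 antioxidant libraries, chosen after seeing the data, gave 2 calls for AO168_O (PRRG3 and AHNAK), 2 for DTBP (NGFR and KRT18) and 1 for DTBP against AO168_O (PRRG3). A replicate block in the 16 libraries without DG, also chosen after seeing the data, gave 2 calls for AO168_O (PRRG3 and AHNAK), 4 for DTBP, all higher (NGFR, log2 fold change 0.57; KRT18, 0.70; CDKN1A, 0.64; INPP5D, 0.66), and 1 for DTBP against AO168_O (PRRG3). The common biological variation was 8.91% in that fit. In the same fit with the replicate block, DTBP had more list members at an unadjusted p under 0.05, where 756 of 15653 genes were higher and 690 lower: 13 of 22 surface ectoderm genes were higher and 1 lower, 10 of 24 p53 targets higher and 0 lower, 8 of 22 neural ectoderm genes higher and 1 lower, 5 of 28 NRF2 targets higher and 0 lower, 4 of 11 amnion and trophoblast genes higher and 0 lower, and 5 of 17 pluripotency genes lower and 0 higher. For AO168_O the G2/M list had 8 of 27 higher and 0 lower, as without the block, and the amnion and trophoblast list 2 of 11 higher and 0 lower. Over all 15653 genes of that fit, 536 were higher and 437 lower in AO168_O at the same threshold. Depth limits genes under about 1 CPM, such as LRRC24 and ITGAM, most.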

Other observations

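Within AO168_O and within DTBP, each with 1 library of each number, the pluripotency genes together were lower in replicate 2. They summed to 5119 CPM in AO168_O replicate 2, against 7382 CPM in replicate 1, and to 4511 against 5748 CPM in DTBP. The neural ectoderm genes summed to 2978 CPM in AO168_O replicate 2, against 2529 CPM in replicate 1, but to 3033 against 2948 CPM in DTBP. Over the 8 antioxidants without DG, in the 16-library fit with the replicate number as a term (edgeR, chosen after seeing the data), 2851 genes were higher and 2679 lower in replicate 2 than in replicate 1, which is 35.3% of 15653 genes tested. Of 17 pluripotency genes 13 were lower in replicate 2 and 0 higher, and of 22 neural ectoderm genes 12 were higher and 1 lower. POU5F1 had a log2 difference of -0.87 (SE 0.076), with 497 CPM in DTBP replicate 2, against 763 CPM in DTBP replicate 1, and 518 CPM in AO168_O replicate 2, against 1113 CPM in AO168_O replicate 1. PAX6, a regulator of neural ectoderm and eye, had 49.8 CPM in DTBP replicate 2, against 31.5 CPM in DTBP replicate 1, and 40.9 CPM in AO168_O replicate 2, against 12.4 CPM in AO168_O replicate 1. DLK1, a Notch-type ligand, had 3541 CPM in DTBP replicate 2, against 2264 CPM in DTBP replicate 1, and 2427 CPM in AO168_O replicate 2, against 768 CPM in AO168_O replicate 1. DTBP replicate 1 thus lay nearer to its replicate 2 in PAX6 and DLK1 than AO168_O replicate 1 did to its own. KRT18 (log2 difference 0.54) and CDKN1A (0.67) were higher in replicate 2, and 15 of 23 genes of FGF and ERK feedback were higher with 1 lower. Respiratory chain subunits were lower for 15 of 26 and higher for 1, and genes of the ATF4 and unfolded protein response were lower for 15 of 24 and higher for 1. What sets the libraries of the 2 numbers apart was not tested.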
